A study of Homo sapiens with 4 samples.

Results

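The 8 genes described here encode the enzymes that make and acetylate the polyamines and the proteins that set how long ornithine decarboxylase lasts in the cell. They are ODC1, AMD1, SRM, SMS, SAT1, OAZ1, OAZ2 and AZIN1, chosen by symbol, and each has 1 row among the 16057 genes of the deposited table. The cells were MM.1S, an established human multiple myeloma line, grown in RPMI-1640 medium with serum and glutamine. One group was given 350 nM JG342, which inhibits the chaperone HSP70 from an allosteric site, for 26 h, and the control group received the solvent DMSO for the same time. RNA was taken from frozen pellets of each culture and sequenced, with 2 libraries per group described in the series as biological duplicates. A single cell line, 1 dose and 1 time point were profiled, so no order of events can be read from the values.

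Polyamines are small positively charged molecules that bind RNA and DNA and are needed for growth and for translation. ODC1 converts ornithine to putrescine, AMD1 supplies the aminopropyl donor, SRM adds an aminopropyl group to give spermidine and SMS adds another to give spermine. SAT1 acetylates spermidine and spermine for export or oxidation, which runs the pathway backwards. The antizymes OAZ1 and OAZ2 bind the ODC1 protein and hand it to the proteasome without ubiquitin, and AZIN1, a relative of ODC1 without enzyme activity, binds antizymes and spares ODC1. Much of this control acts on translation, through a ribosomal frameshift in antizyme mRNA and an upstream reading frame in AMD1 mRNA, or on protein turnover, and transcript levels do not measure it.

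Values were taken as TPM, a transcript level corrected for length and scaled to the library total. Levels of different genes are set side by side on that basis. Whether a row sums all transcripts of a gene is not stated, so a level may leave out part of a gene's transcripts. Fold changes are differences of log2(TPM + 1), JG342 minus DMSO, with a standard error (SE) from limma and p-values adjusted over the 12042 genes whose mean level reached 1 TPM. A gene is called when its adjusted p is under 0.05. The libraries summed to between 994463 and 994718 TPM, and read depth is unknown because TPM does not keep it. All 9 plasma cell markers, among them SDC1, IRF4 and XBP1, were above 1 TPM in every library, and their summed level was 14570 to 14836 TPM with DMSO and 10029 to 10667 TPM with JG342. JCHAIN went from 9907 and 10383 TPM to 5732 and 5431 TPM; without it the other 8 summed to 4187 to 4928 TPM with DMSO and 4598 to 4936 TPM with JG342, and IRF4 was higher with JG342 (353 in both DMSO libraries, 589 and 615 TPM). Of 12 listed markers of T cells, monocytes, epithelium and fibroblasts, 11 have a row and 4 were above 1 TPM in every library: LYZ (37.0 to 46.2 TPM), CD3E (3.21 to 7.70 TPM), KRT18 and CDH1. CD8A, CD14, CSF1R, EPCAM and the 3 fibroblast markers were at or below 0.99 TPM. The summed level of the monocyte list was 37.4 to 46.04 TPM with DMSO and 39.4 to 46.2 TPM with JG342. That of the T cell list was 5.56 to 7.97 and 3.35 to 5.35 TPM. The part of these genes in the results was not tested. TPM is a share of the library, so a fall of a transcript per cell and a change in total RNA per cell cannot be told apart. Among all fitted genes, 1304 were called higher and 917 lower. After scaling the libraries to equal medians, which shifted the overall median change from 0.03 to -0.03 on the log2 scale, the split was 966 higher and 1200 lower.

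After JG342, 3 of the 4 transcripts for making polyamines were lower and the transcript for acetylating them was higher. Of the 8 genes, 3 were called lower (ODC1, AMD1 and SRM), 1 was called higher (SAT1), and SMS, OAZ1, OAZ2 and AZIN1 did not pass. For comparison, 18.4% of all fitted genes were called, 7.62% lower and 10.8% higher. These shares are not matched for level: with DMSO each of the 8 genes lay above at least 61% of fitted genes. The median log2 fold change of the 8 genes was -0.24, against 0.03 over all fitted genes. The values of DMSO and JG342 did not overlap in 6 of the 8 genes, a share to be read beside the 62.1% of all fitted genes for which this held. The lower calls did not hold without DMSO replicate 1, DMSO replicate 2 or JG342 replicate 2, while SAT1 kept its call. Leaving out a library also left fewer calls among all fitted genes. All 8 kept their direction under each of the 13 other ways of processing the data.

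**Figure D1:**
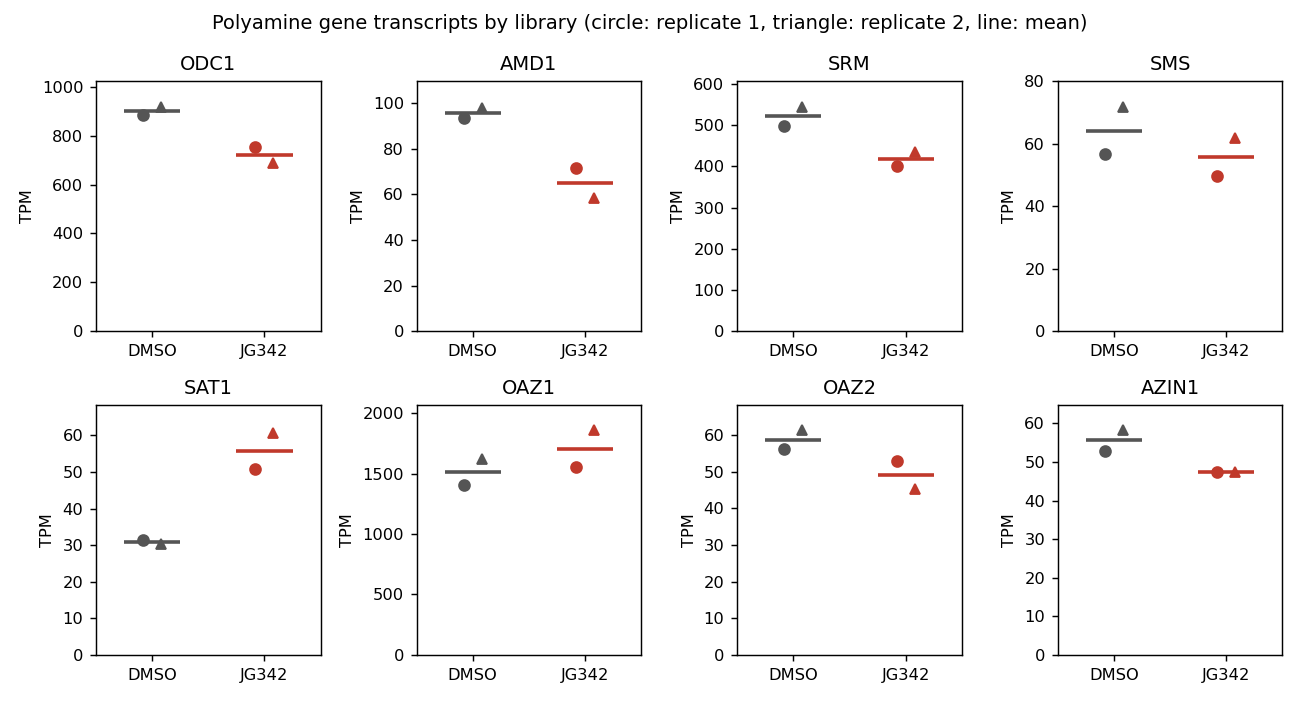
Level of each of the 8 transcripts in TPM (vertical axis, from 0, scaled separately for each gene) in the 4 libraries, with DMSO in grey and JG342 in red; circles are replicate 1, triangles replicate 2 and lines the mean of both. Both JG342 libraries lie below both DMSO libraries for ODC1, AMD1, SRM, OAZ2 and AZIN1, both lie above for SAT1, and the groups overlap for SMS and OAZ1.

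In DMSO-treated cells the pathway's transcripts covered a wide range of levels. OAZ1 was the most abundant at 1512.5 ± 152 TPM (SD, n = 2), above 99.2% of fitted genes, followed by ODC1 at 902 ± 23.2 TPM and SRM at 521 ± 32.9 TPM. AMD1 came next at 95.6 ± 2.89 TPM. SMS, OAZ2 and AZIN1 lay close together at 64.1 ± 10.7, 58.7 ± 3.65 and 55.6 ± 3.93 TPM, and the libraries of neighbours in this order overlapped. SAT1 was the lowest at 31.0 ± 0.75 TPM. With JG342 the first 3 places were held by the same genes in the same order, while SAT1 at 55.8 ± 6.96 TPM now lay within the range of AMD1, SMS, OAZ2 and AZIN1, whose libraries spanned 45.3 to 71.4 TPM.

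ODC1, the enzyme that commits ornithine to the pathway, was at 886 and 919 TPM in DMSO replicates 1 and 2 and at 754 and 687 TPM in JG342 replicates 1 and 2. Both treated libraries were below both controls, and the mean with JG342 was 0.798 of the mean with DMSO. The log2 fold change was -0.33 ± 0.09 SE (limma adjusted p 0.0405). AMD1, S-adenosylmethionine decarboxylase, had the largest fall of the 8 on the log2 scale, from 93.6 and 97.7 TPM to 71.4 and 58.5 TPM. Its 2 control libraries were close to each other and its treated libraries further apart. The log2 fold change was -0.56 ± 0.12 SE (limma adjusted p 0.0133), lower than that of all but 4.24% of fitted genes.

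SRM, spermidine synthase, was at 498 and 544 TPM with DMSO and at 401 and 434 TPM with JG342. The groups did not overlap, and the treated mean was 0.801 of the control mean. The log2 fold change was -0.32 ± 0.10 SE (limma adjusted p 0.0472). SMS, spermine synthase, had 56.6 and 71.6 TPM with DMSO and 49.7 and 61.7 TPM with JG342. Its groups overlapped, and the spread between replicates exceeded the difference between groups. Replicate 2 was the higher in both groups, and the log2 change between same-numbered libraries was -0.18 and -0.21. The SMS log2 fold change of -0.20 ± 0.15 SE did not pass (limma adjusted p 0.379), with a 95% interval from -0.53 to 0.13. Its transcript matches 2 processed pseudogenes at 98.3% and 96.9% identity over 80.0% and 80.2% of its length, so its level is uncertain where reads could be shared.

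The call of SRM was lost without any 1 of the 4 libraries, and those of ODC1 and AMD1 without either DMSO library or JG342 replicate 2. Without JG342 replicate 1, ODC1 and AMD1 kept theirs (limma adjusted p 0.0447 and 0.00606). When 1 library is left out, the lone library of its group is assumed to vary like the rest. Without DMSO replicate 1, DMSO replicate 2 or JG342 replicate 2 in turn, the limma adjusted p of ODC1 was 0.144, 0.232 and 0.155, and that of AMD1 was 0.0556, 0.0901 and 0.0507. For SRM the adjusted p ran from 0.0559 to 0.285 when each of the 4 libraries was left out. Without the limit on mean TPM none of the 3 genes passed, at 0.0978 for ODC1, 0.104 for SRM and 0.0663 for AMD1, and under quantile normalization ODC1 and SRM did not, at 0.0609 and 0.0749. ODC1 and SRM also lost their calls when the variance was not modelled on expression level (0.119 and 0.130).

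SAT1, spermidine/spermine acetyltransferase and the rate-limiting step of polyamine breakdown, was at 31.5 and 30.4 TPM with DMSO and at 50.8 and 60.7 TPM with JG342. Both treated libraries were well above both controls, with a mean 1.80 times that with DMSO. The log2 fold change was 0.82 ± 0.12 SE (limma adjusted p 0.00306), higher than 96.3% of fitted genes. It passed under all 13 alternatives, with adjusted p-values between 3.18e-12 and 0.0394, and ran from 0.70 to 0.95 when each library was left out. SAT1 rose while AMD1 fell. The AMD1 level per SAT1 level within a library was 2.97 and 3.21 with DMSO and 1.40 and 0.964 with JG342. That ratio follows from both changes already given and is no separate result.

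**Figure D2:**
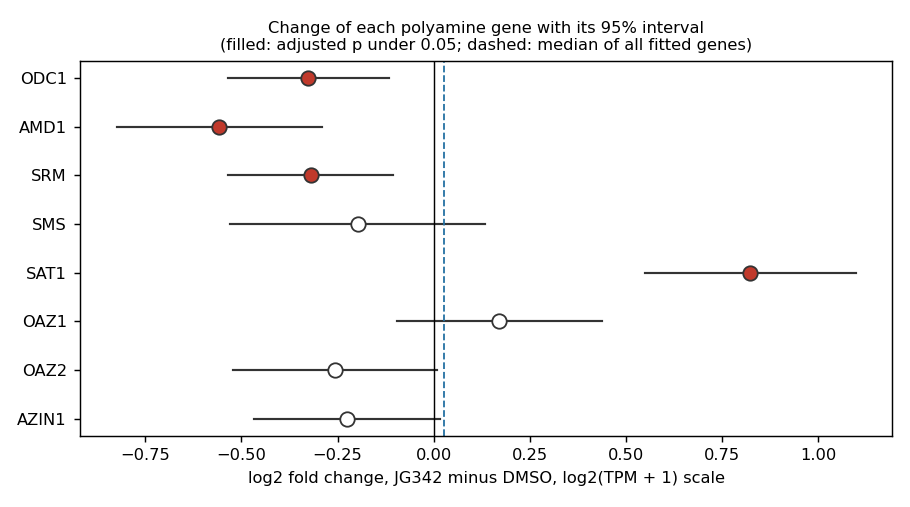
Log2 fold change (JG342 minus DMSO, horizontal axis, log2(TPM + 1) scale) of the 8 genes with 95% intervals from limma; filled points have an adjusted p under 0.05 and the dashed line is the median of all fitted genes at 0.03. SAT1 at 0.82 lies to the right with an interval from 0.55 to 1.097, and AMD1, ODC1 and SRM lie to the left of 0.

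The regulators of ODC1 protein did not pass the test in the fit without a replicate block. OAZ1, the main antizyme, was at 1405 and 1620 TPM with DMSO and at 1551 and 1859 TPM with JG342. In both groups replicate 2 was the higher, and the groups overlapped. The log2 fold change was 0.17 ± 0.12 SE (limma adjusted p 0.347), with a 95% interval from -0.10 to 0.44. Its exons share 19.2% of their bases with another annotated coding gene on the same strand, AC005258.1, so reads there cannot be assigned with certainty. The listed OAZ1 level was above the listed ODC1 level in every library. Their ratio was 1.59 and 1.76 with DMSO and 2.06 and 2.71 with JG342, a description of 2 libraries per group for which an exact two-sided permutation test could not go below a p of 0.333.

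OAZ2, the second antizyme, was at 56.1 and 61.3 TPM with DMSO and at 52.8 and 45.3 TPM with JG342. Its groups did not overlap, but JG342 replicate 1 lay just below the lower control, and the log2 fold change of -0.26 ± 0.12 SE did not pass (limma adjusted p 0.160). AZIN1, the antizyme inhibitor, was at 52.8 and 58.4 TPM with DMSO and at 47.3 and 47.4 TPM with JG342. Its treated libraries were nearly equal and both below the controls, and its log2 fold change of -0.23 ± 0.11 SE did not pass either (limma adjusted p 0.174). The 95% intervals reached from -0.52 to 0.01 for OAZ2 and from -0.47 to 0.02 for AZIN1, which leaves room for falls as large as that of ODC1. The ODC1 level per AZIN1 level was 16.8 and 15.7 with DMSO and 15.9 and 14.5 with JG342, so the ranges overlapped.

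**Figure D3:**
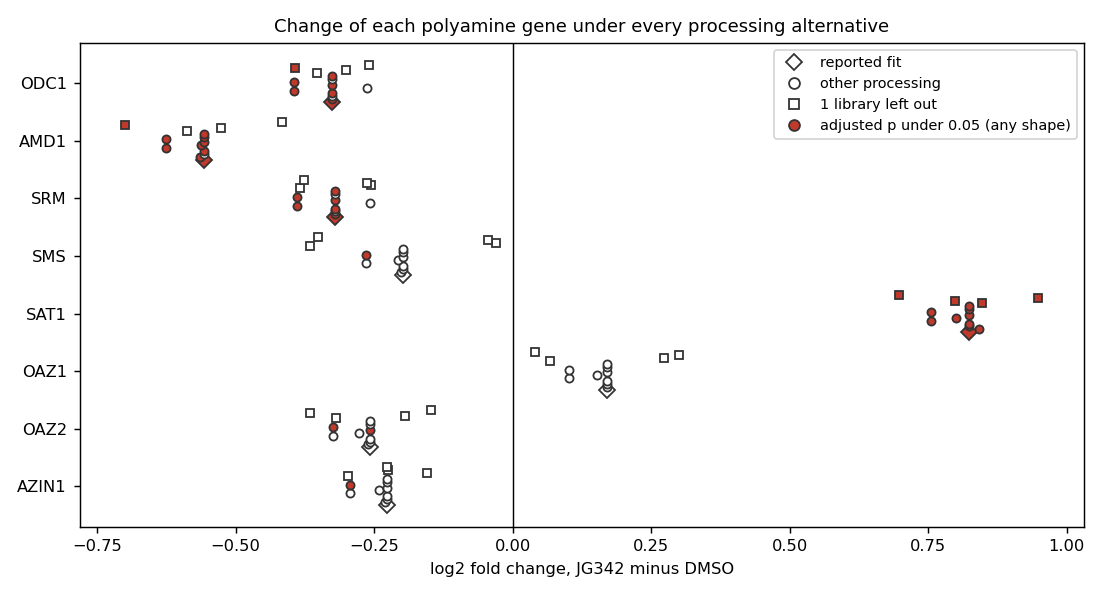
Log2 fold change of each gene (horizontal axis) in the reported fit (diamonds), under 9 other processing settings (circles) and with 1 library left out (squares); red fill marks an adjusted p under 0.05. Every SAT1 point is filled and to the right of 0, whereas ODC1, AMD1 and SRM stay left of 0 with both filled and open points.

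Other genes of polyamine metabolism and the MYC network were taken from 7 lists with 54 genes, of which 50 have a row in the table and 44 reached a mean of 1 TPM. Of these 44, 7 were called higher and 4 lower, set beside 10.8% higher and 7.62% lower among all fitted genes, and their median log2 fold change was 0.01, close to the 0.03 of all fitted genes. Both counts were smaller without either DMSO library, and fewer were called lower without JG342 replicate 2. The counts over all fitted genes fell in each of these fits too. The list of oxidases and further acetyltransferases had 3 of 4 genes called higher (10.8% of all fitted genes were) and none lower, with a median of 0.62. PAOX, the peroxisomal oxidase that acts on acetylated polyamines, was at 5.61 and 6.62 TPM with DMSO and at 17.4 and 23.7 TPM with JG342. Its groups were far apart, with a log2 change of 1.59 ± 0.17 SE (limma adjusted p 0.000862). It passed under all 13 alternatives. PAOX exons share 6.3% of their bases with another annotated coding gene on the same strand, AL360181.3, so reads there cannot be assigned with certainty.

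SMOX, which oxidizes spermine directly, was at 4.61 and 4.04 TPM with DMSO and at 6.89 and 7.72 TPM with JG342, a log2 change of 0.64 ± 0.16 SE (limma adjusted p 0.0275). SAT2, a relative of SAT1, was at 35.1 and 35.5 TPM with DMSO and at 57.4 and 50.3 TPM with JG342, a log2 change of 0.59 ± 0.11 SE (limma adjusted p 0.00900). Neither gene overlapped between groups. The SMOX call was lost without DMSO replicate 1, DMSO replicate 2 or JG342 replicate 2 (limma adjusted p 0.0780, 0.160 and 0.0935), without the limit on mean TPM (0.0859) and under quantile normalization (0.0570). The SAT2 call was lost without either DMSO library (0.0506 and 0.0553). SATL1, at 1.5 to 2.67 TPM, did not pass.

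The hypusine pathway uses spermidine to modify a single protein, the translation factor eIF5A. DHPS carries out the first step and DOHH the second. EIF5A itself was at 1589 and 1634 TPM with DMSO and at 1133 and 1183 TPM with JG342. The libraries of a group were close together and the groups far apart, with a log2 change of -0.48 ± 0.09 SE (limma adjusted p 0.00844). Its transcript matches EIF5AL1 at 97.6% identity over 90.0% of its length and the pseudogene EIF5AP4 over 37.0%, so reads may be split. DOHH was at 42.8 and 39.8 TPM with DMSO and at 29.99 and 32.2 TPM with JG342, a log2 change of -0.40 ± 0.11 SE (limma adjusted p 0.0400). DHPS, at 77.0 and 89.1 TPM and at 86.7 and 82.4 TPM, did not pass (0.03 ± 0.11 SE, limma adjusted p 0.882), and neither did EIF5A2. In all, 2 of 4 genes were called lower (7.62% of all fitted genes were) and none higher. The EIF5A call was lost without either DMSO library (0.0578 and 0.0873). The DOHH call was lost without any 1 of the 4 libraries (0.0584 to 0.2004), without the limit on mean TPM (0.0798) and without the variance trend (0.0749).

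Among transporters, 1 of 7 fitted genes was called higher and 1 lower, set beside 10.8% higher and 7.62% lower among all fitted genes. SLC3A2, the shared heavy chain of several amino acid exchangers that has also been linked to polyamine export, was at 184 and 243 TPM with DMSO and at 548 and 611 TPM with JG342. The treated libraries were well above the controls, with a log2 change of 1.45 ± 0.13 SE (limma adjusted p 0.000323). ATP13A3, a P-type ATPase of polyamine uptake, shares 4.95% of its exon bases with AC108676.1, annotated on the same strand. ATP13A3 was at 61.2 and 66.2 TPM with DMSO and at 50.9 and 45.3 TPM with JG342. Its log2 change was -0.40 ± 0.11 SE (limma adjusted p 0.0374). Its call was lost without DMSO replicate 1, DMSO replicate 2 or JG342 replicate 2 (limma adjusted p 0.0945, 0.213 and 0.141), without the limit on mean TPM (0.0859) and without the variance trend (0.0834). Its lysosomal relative ATP13A2, at 12.4 to 15.0 TPM, did not pass (limma adjusted p 0.852).

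On the supply side, 2 of 9 fitted arginine and ornithine genes were called higher and none lower (10.8% and 7.62% of all fitted genes were). ASS1, argininosuccinate synthase, was at 1.91 and 5.56 TPM with DMSO and at 57.1 and 62.5 TPM with JG342, a log2 change of 3.80 ± 0.31 SE (limma adjusted p 0.000179). Its DMSO libraries differed, and the change was 3.21 without DMSO replicate 1 and 4.38 without DMSO replicate 2. SLC7A1, a carrier of arginine, lysine and ornithine, was at 20.2 and 30.04 TPM with DMSO and at 49.3 and 48.4 TPM with JG342, a log2 change of 0.96 ± 0.17 SE (limma adjusted p 0.00681). It lost its call without the limit on mean TPM (0.0642). The enzymes next to ornithine itself did not pass: ARG2, which makes ornithine from arginine, had a log2 change of 0.09 ± 0.16 SE (limma adjusted p 0.749). OAT, which links ornithine to proline and glutamate, had -0.31 ± 0.11 SE (limma adjusted p 0.0887). None of the 9 fitted genes of the methionine cycle and methionine salvage was called by limma (18.4% of all fitted genes were). An unadjusted limma p under 0.05 was reached by 1 gene. That gene was MAT2A, the synthase of S-adenosylmethionine, at 263 and 277 TPM with DMSO and at 222 and 227 TPM with JG342 (limma adjusted p 0.0715).

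**Figure D4:**
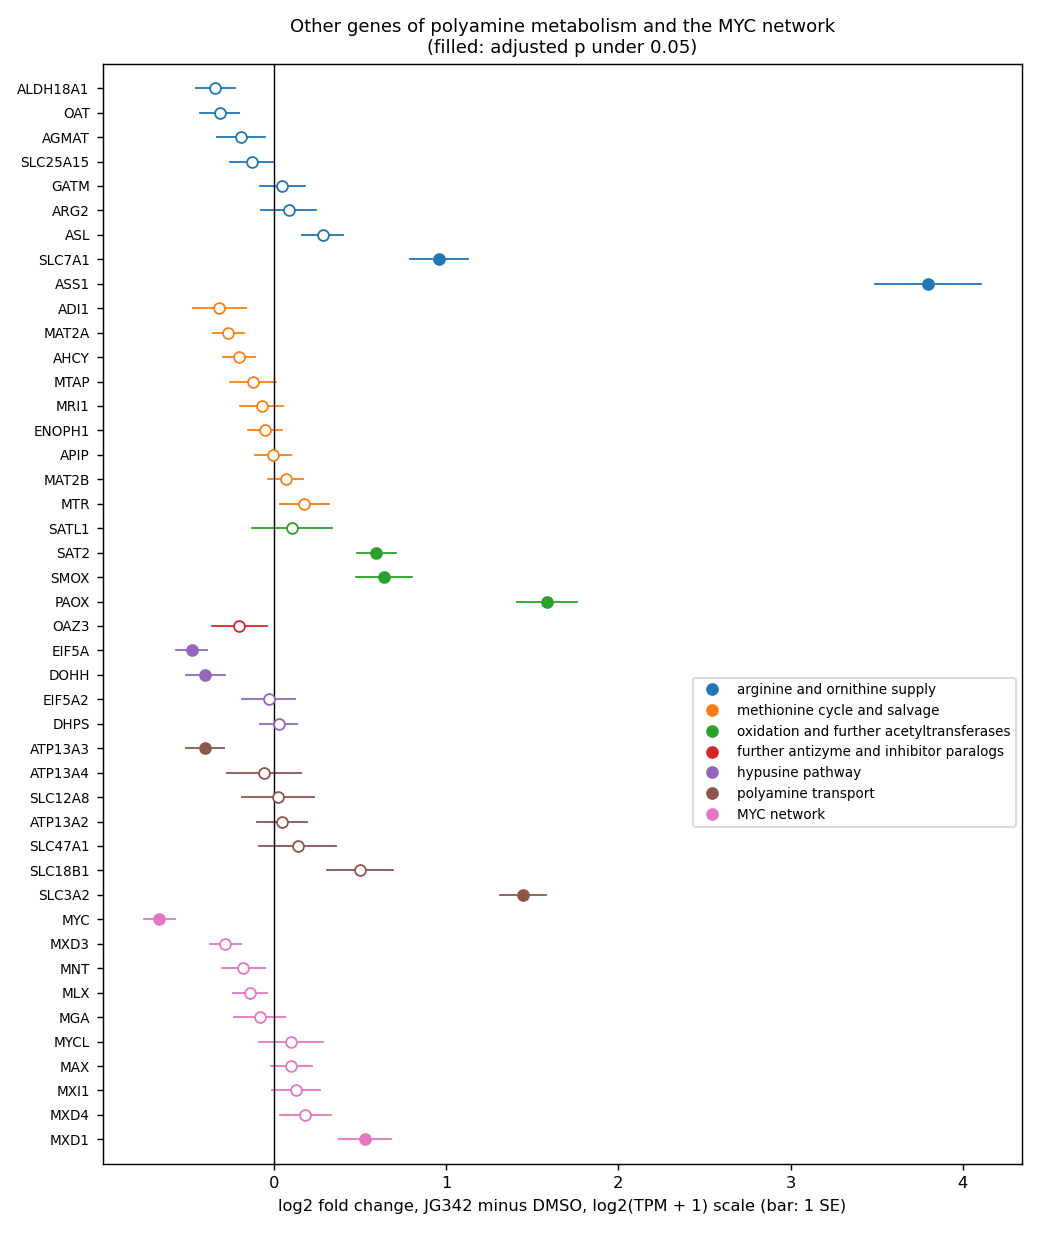
Log2 fold change (JG342 minus DMSO, horizontal axis, log2(TPM + 1) scale) with bars of 1 SE for the 44 fitted genes of the 7 other lists, coloured by list and filled where the adjusted p was under 0.05. PAOX, SMOX and SAT2 lie to the right of 0, EIF5A, DOHH, ATP13A3 and MYC to the left, and ASS1 at 3.80 is the farthest point.

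Of the further antizyme paralogs, OAZ3 was listed at 21.8 to 31.3 TPM and did not pass (limma adjusted p 0.414). OAZ3 is known as a testis antizyme, and its exons overlap MRPL9 on the opposite strand and 3 further annotated transcripts. The strand setting of the library is not given in the sources used here, so the origin of these reads is uncertain. AZIN2 lay below the limit for the test, at 0.38 and 0.47 TPM with DMSO and at 0.99 and 1.08 TPM with JG342.

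MYC, whose protein is known to activate ODC1 and SRM, was lower after JG342. It was at 285 and 291 TPM with DMSO and at 181 and 182 TPM with JG342, a log2 change of -0.66 ± 0.09 SE (limma adjusted p 0.00206), and it passed under all 13 alternatives. MAX, its dimer partner, was at 40.5 and 48.5 TPM and at 47.5 and 47.8 TPM and did not pass (limma adjusted p 0.590). MXD1, which competes with MYC for MAX, was at 6.30 and 6.49 TPM with DMSO and at 10.4 and 9 TPM with JG342, a log2 change of 0.53 ± 0.15 SE (limma adjusted p 0.0423). MXD3, on the same list, lay the other way, at 182 and 188 TPM with DMSO and 149 and 154 TPM with JG342. It did not pass (limma adjusted p 0.0622). The MXD1 call was lost without DMSO replicate 1, DMSO replicate 2 or JG342 replicate 1 (limma adjusted p 0.165, 0.156 and 0.157), without the limit on mean TPM (0.106), after median scaling (0.0522) and under quantile normalization (0.0680). Of the 10 fitted MYC network genes, 1 was called higher and 1 lower, set beside 10.8% higher and 7.62% lower among all fitted genes. Whether the change of MYC had a part in that of ODC1 or SRM was not tested.

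The E-box CACGTG, the letters that MYC and MAX bind, was searched in the 250 bases before annotated transcript starts (RefSeq, GRCh38.p14). It reads the same on both strands. It occurs in 6.34% of all 35116 such windows. A gene was counted if any of its windows held the E-box, and some genes had several windows. The share of windows is therefore no like background for counts of genes. Among the 7 members with a window the E-box was found for ODC1 and SRM and not for AMD1, SMS, SAT1, OAZ1 or OAZ2. Among the other called genes with a window it was found for DOHH, which fell, and for ASS1, which rose. It was not found for EIF5A, SLC3A2, SAT2, ATP13A3, MXD1 or SLC7A1. AZIN1, PAOX, SMOX and MYC had no window among the sequences searched, although RefSeq lists transcripts for them. The stretches below show these 4 matches 5′ to 3′ on the gene's strand, with the E-box in capitals.
ODC1 (chr2:10448024-10448053, minus strand): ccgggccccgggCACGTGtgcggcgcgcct
SRM (chr1:11060200-11060229, minus strand): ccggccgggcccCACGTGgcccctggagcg
DOHH (chr19:3500675-3500704, minus strand): gttggtgccgtccggcacggtCACGTGggc
ASS1 (chr9:130444878-130444907, plus strand): gcgcgtccccgcCACGTGtccccggtcacc
The match begins 29 bases before a transcript start in ODC1, 199 in SRM, 9 in DOHH and 71 in ASS1. In ODC1 it precedes the inner of 2 annotated starts and so lies inside the gene. The match is shared by genes that fell and a gene that rose, and binding was not measured.

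The fitted genes whose 4 values, centred on their own mean, lay nearest to those of a called member were FKBP3 and MYO19 for ODC1, PSMD12 and EXOSC10 for SRM, MIDN and FAM98A for AMD1, and CDK2AP2 and GGACT for SAT1. The root mean square difference over the 4 libraries was between 0.00934 and 0.0186 on the log2 scale. The neighbours of ODC1 and SRM were not called (limma adjusted p 0.0652 to 0.0876), close as their values lay to those members. The neighbours of AMD1 and SAT1 were called. With 4 libraries many genes share such a pattern, and the names are given as a description.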

How the data were processed

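RNA sequencing of 4 MM.1S libraries (2 DMSO, 2 JG342) was analysed from 1 deposited table. Its header names no unit; the deposited values were taken as TPM because the library totals, between 994463 and 994718, are nearly equal and RSEM, which reports TPM, is named among the tools. The submitters' processing notes name HISAT2 2.0.4, Bowtie2 2.2.5 and RSEM 1.2.12 without their roles; genome build, annotation and strand setting are not given in the sources used here. Whether a row sums all transcripts of a gene is not stated.

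Values were transformed to log2(TPM + 1). Genes averaging 1 TPM or more across the libraries, 12042 in all, entered limma 3.58.1 (R 4.3.3; lmFit, then eBayes with trend) and the model held treatment alone. P-values are two-sided and Benjamini-Hochberg adjusted over all fitted genes. At 2 residual and 6.89 prior degrees of freedom, the error rests mainly on variance shared across genes. The p-values set each gene's difference against that error, which comes from these libraries alone. The fit was tested on simulated data with changes larger than those of the 8 members and no effect shared by same-numbered libraries. That check does not cover smaller changes or such an effect. The 8 members, the lists and the tests were chosen with earlier results of these data known. Named were all members, up to 4 called genes per list, MYC and MAX, and the nearest patterns. MAT2A, OAT, ARG2, DHPS, EIF5A2, ATP13A2, SATL1, OAZ3, AZIN2 and MXD3 were chosen after their values were seen. Near-identical copies (at least 95% identity over at least 20% of the transcript) were searched with BLAST 2.17.0 in GENCODE 29, and exon overlaps were counted there. Accessions of all named genes checked carried the same symbol in RefSeq. One further marker list is not reported here.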

Additional observations from a re-analysis of the deposited data

How the results depend on the processing

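All 8 members kept their direction under all 13 alternatives, and of the 104 member results 83 kept their side of the threshold; SAT1 kept its call in each. The count of members called lower, 3 in the reported fit, was 0 without the limit on mean TPM, 1 under quantile normalization, 1 without the variance trend, 6 with the replicate block and median scaling together, and 0 to 2 when each library was left out. ODC1 stood at -0.33 but uncalled without the limit or the trend, at -0.26 under quantile normalization, and between -0.39 and -0.26 with libraries left out. SRM likewise stood at -0.32, -0.26 and between -0.38 and -0.26. AMD1 stood at -0.56 uncalled without the limit and between -0.70 and -0.42 with libraries left out. The deviations of same-numbered libraries correlated across genes at 0.27, and their sample descriptions share a prefix whose meaning is not given. With the replicate block, OAZ2 at -0.26 was called (limma adjusted p 0.0422). With the block and median scaling, SMS (-0.27, 0.0351), OAZ2 (-0.32, 0.0254) and AZIN1 (-0.29, 0.0247) were called.

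Other pathway genes called higher, 7 as reported, numbered 4 without the limit and 4 to 7 with libraries left out. Those called lower, 4 as reported, numbered 2 without the limit, 7 after median scaling, 9 with the replicate block, 10 with block and scaling, 2 without the trend, and 1 to 3 with libraries left out. MAX changed sign without DMSO replicate 1, to -0.025, between -0.025 and 0.23 over the libraries left out. Over all genes, 533 were higher and 295 lower without the limit, 2316 and 1891 with the replicate block, 2310 lower with block and scaling, and 526 lower without the trend. With libraries left out, 575 to 1107 were higher and 192 to 718 lower. Settings without a limit test 16057 genes, and leaving out a library leaves 3; other causes were not tested. Read depth is unknown, so counting error could not be set beside these values.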
